A study of Astyanax mexicanus with 22 samples.

Results

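Ion and bicarbonate solute carriers are membrane proteins that move bicarbonate, chloride, sodium, protons, calcium, zinc and magnesium across cell membranes. They were followed here in the ovary of Astyanax mexicanus, a species of tetra whose river populations have eyes and whose cave populations are blind. The members were the gene rows whose symbol begins with slc4a, slc8a, slc9a, slc12a, slc24a, slc26a, slc30a, slc39a or slc41a in any letter case and that had a count in 5 or more libraries. This gave 77 rows in 9 families, out of 27420 gene rows and of 85 rows with such a symbol. Of the 77, 55 were abundant enough to be tested among the 15607 genes that passed the filter on low counts, and 22 were not. SLC4A1AP, which encodes kanadaptin and is no carrier itself, is a member by its symbol, so 76 members are carriers by name.

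Right-side ovaries were taken from starved and control females of the Pachón cave and of surface fish. Every sample is labelled as wild type (WT) and as ovary, and the treatment labels read Starved or Non-treated. The libraries came in batches named old and new. In the old batch there were 4 starved and 4 control Pachón libraries and 2 starved and 4 control surface libraries. In the new batch there were 2 libraries for each of these 4 groups, so that 22 libraries fell into 8 groups. The design text names 2 ages, near 500 and 1200 days, without tying either to a batch. No label states how long the fish were starved. The labels do not state that replicates are separate fish, so a p-value here measures the spread between these samples, which may be technical.

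Bicarbonate carriers of the SLC4 family and anion exchangers of the SLC26 family set the pH and chloride content of cells and of the fluids that epithelia secrete. Sodium-proton exchangers (SLC9) remove acid, cation-chloride cotransporters (SLC12) regulate cell volume, and sodium-calcium exchangers (SLC8 and SLC24) remove calcium. Zinc leaves the cytosol through SLC30 proteins and enters it through SLC39 proteins, and SLC41 proteins move magnesium. In the ovary, pH, cell volume, zinc and calcium are all controlled during the growth and maturation of the oocyte.

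The libraries held 4860620 to 7513790 counts in genes (median 5861974.5). The members held 0.192% to 0.316% of these counts. The lowest share was in new-batch starved surface replicate 2, and the next lowest was 0.245%. That library also stood apart on the third principal component and had the lowest scaling factor (0.833), and the first component (43.6% of the variance) separated the morphs. Oocyte markers had counts in every library, with a summed level of 1453 to 2256 CPM in Pachón and 1330 to 2974 CPM in surface ovaries for 6 genes. Among the 6, figla stood at 2.79 to 13.7 CPM. CPM are counts per 1e+06 counts in tested genes after TMM scaling. The chloride cotransporters of the kidney tubule had 1 count over all libraries for slc12a3 and 21 counts for SLC12A1. Other kidney tubule markers on the same list had 1991 counts for lrp2a, 259 for pax2a, 110 for cdh17 and 25 for slc5a2. Level differences between genes are not given, because transcript lengths were not at hand.

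All 55 tested members were compared between morphs and between starved and control fish with edgeR's quasi-likelihood test, averaging the batches with equal weight. Called means a Benjamini-Hochberg adjusted p under 0.05 over all 15607 genes, and changes are log2 values ± SE. Of the tested members, 32 were called in at least 1 comparison and 23 in none, a count not taken over all genes. The 22 untested members had total counts of 7 to 115 over all libraries and at most 2.33 CPM in any library. They were slc4a3, 3 SLC8, 2 SLC9, 2 SLC12, 3 SLC24, 5 SLC26, 2 SLC30 and 3 SLC39 genes and SLC41A3. Among them were slc26a3.1, slc26a3.2, slc26a6l and SLC26A9, anion transporters of gut and airway in mammals.

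**Figure D1:**
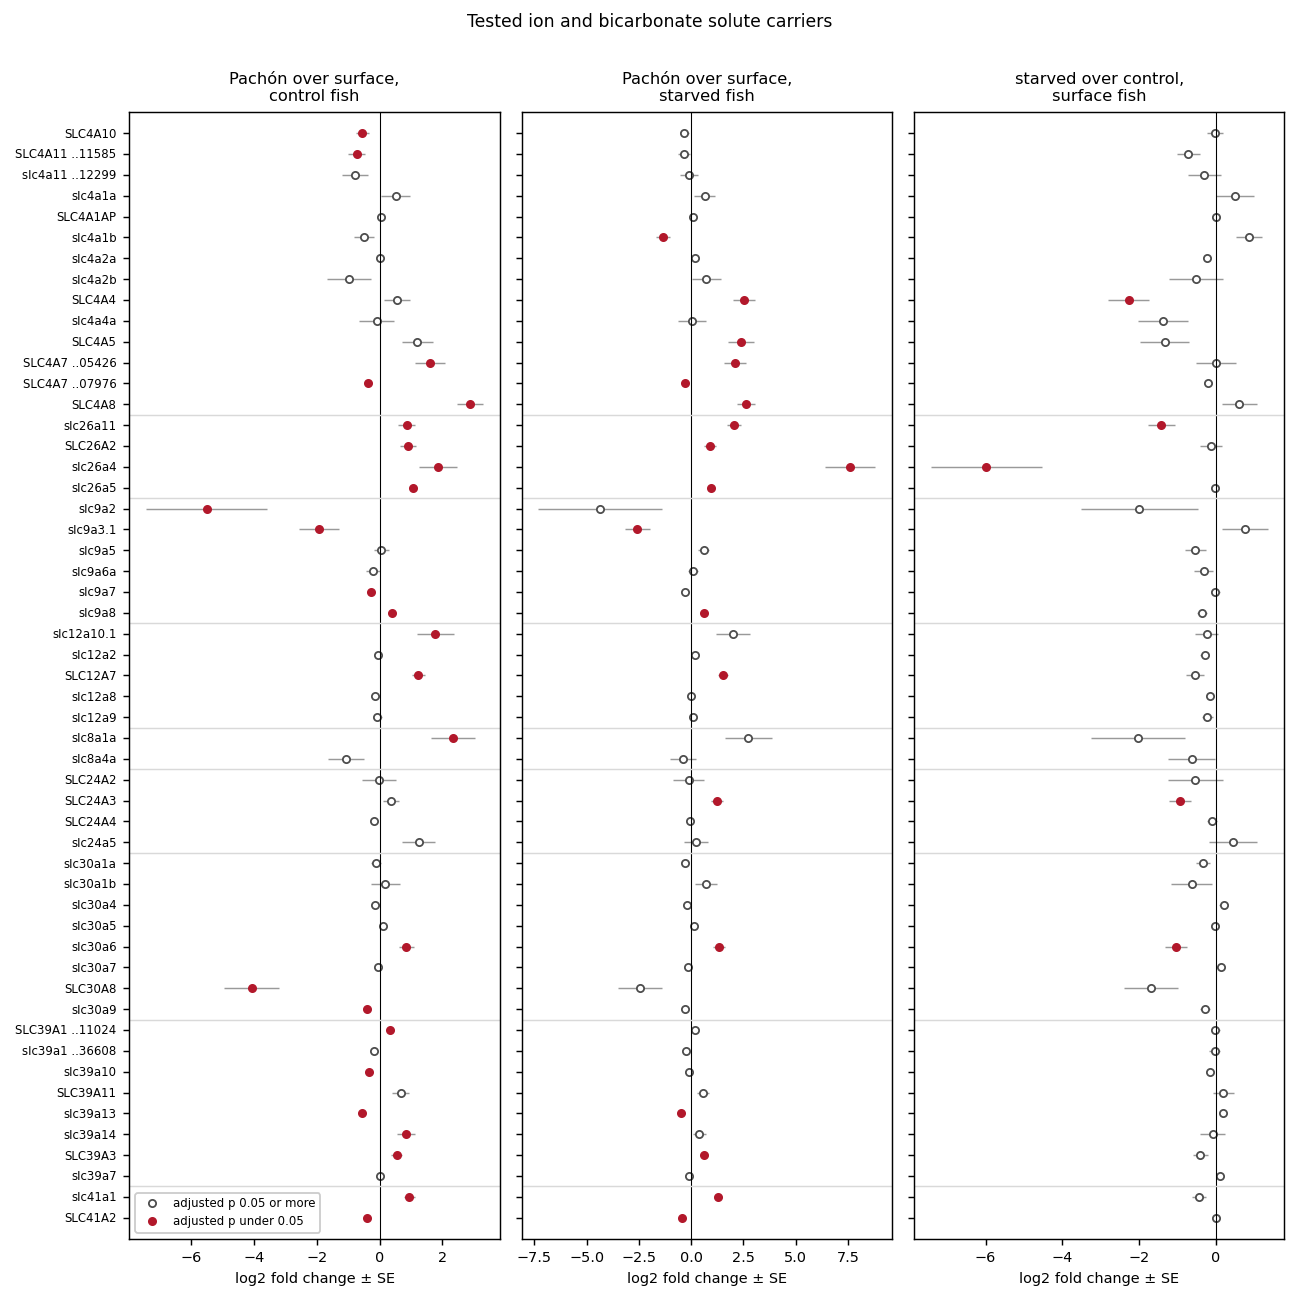
Log2 fold change ± SE of 53 of the 55 tested members, by family from top to bottom, for Pachón over surface in control fish (left), Pachón over surface in starved fish (middle) and starved over control in surface fish (right). Filled points passed an adjusted p of 0.05, which 26, 19 and 5 of the members drawn did, and the fitted values of slc26a4 in the middle and right panels rest on surface libraries with 0 counts.

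In control fish, 27 of the 55 tested members (49.1%) differed between Pachón and surface ovaries, 15 higher and 12 lower in Pachón. Over all tested genes 34.6% were called, 16.6% higher and 18% lower. The members' median change was 0.02, against -0.01 over all genes, and their median absolute change was 0.52, against 0.33 over all genes. Of the 27 called members, 10 (37.0%) changed 2-fold or more, 10 (37.0%) had Pachón and surface libraries that did not overlap, and 24 (88.9%) had the same sign in both batches. Of all called genes, 44.6%, 51.5% and 97.6% did so. Fits that left out 1 library kept 10 of the 27 calls in all 22 fits. The total ranged over 15 to 31, with 15 without replicate 1 of the surface new controls or replicate 2 of the Pachón new controls. The old batch alone called 17 members (30.9%, against 30.4% of all genes) and the new batch alone 11 (20%, against 14.9% of all genes). Without replicate 1 of the surface new controls the members' share (26.3% of 57 tested) also stood near that of all genes (25.7%).

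Of the 9 SLC26 anion exchangers, 4 were tested, and all 4 were called higher in Pachón control ovaries, with a median of 0.98. Of all genes, 34.6% were called. The 4 include slc26a4, which passed the filter on low counts through Pachón libraries, where it is high. Only slc26a5 kept its call in all 22 fits without 1 library. Prestin, slc26a5 (ENSAMXG00000007666), is the motor protein of outer hair cells in mammals and an anion transporter in other vertebrates. Its lowest, median and highest levels were 120, 125 and 129 CPM in Pachón controls, against 54.1, 61.2 and 65.4 CPM in surface controls. All 6 Pachón libraries stood near 2 times the level of the 6 surface libraries, with no overlap. The change was 1.06 ± 0.08 (edgeR adjusted p = 1.13e-08), with 1.02 in the old batch (adjusted p = 1.71e-07) and a call in the new batch too (adjusted p = 1.41e-05). In starved fish it was 0.95 ± 0.09 (edgeR adjusted p = 1.65e-07), with 102 to 124 CPM in Pachón and 46.2 to 64.8 CPM in surface ovaries.

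The sulfate transporter SLC26A2 (ENSAMXG00000040557) had 15.1, 17.1 and 20.5 CPM (lowest, median, highest) in Pachón controls and 5.58, 9.97 and 11.7 CPM in surface controls. These ranges did not overlap, and the change was 0.90 ± 0.27 (edgeR adjusted p = 0.0133). That call was lost without replicate 1 of the surface new controls (adjusted p = 0.0908) or of the Pachón new controls (0.0537). The chloride and sulfate transporter slc26a11 (ENSAMXG00000004718) had 4.52, 12.1 and 14.3 CPM in Pachón controls and 3.38, 6.30 and 10.5 CPM in surface controls. Its ranges overlapped, and the change of 0.86 ± 0.27 (edgeR adjusted p = 0.02) was not called without replicate 1 of the surface new controls (adjusted p = 0.111) or replicate 2 of the Pachón new controls (0.162).

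Pendrin exchanges chloride for bicarbonate or iodide in the inner ear, kidney and thyroid. Its gene slc26a4 stands on a pair of rows, and the tested one is ENSAMXG00000043653. Levels were 1.25 to 6.99 CPM in the 6 Pachón control libraries. In surface controls they were 0, 0.152, 0.572 and 0.170 CPM in the old batch and 1.52 and 13.0 CPM in the new batch. A single surface library thus lay above every Pachón control. Surface libraries alone would not have carried this row past the filter on low counts. The pooled change was 1.85 ± 0.60 (edgeR adjusted p = 0.0255), made up of 4.56 in the old batch (adjusted p = 0.000558) and -0.86 in the new batch (adjusted p = 0.536). That change differed between the batches by 5.42 ± 1.22 (old minus new, edgeR adjusted p = 0.0412), a comparison added after the values had been seen, in which 1.02% of all genes and 2 members were called. The pooled call was lost without replicate 1 of the surface new controls (adjusted p = 0.0773) or replicate 2 of the Pachón new controls (0.272).

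Bicarbonate carriers gave 2 members higher and 3 lower of 14 tested in controls, with a median of -0.04. Their share called, 35.7%, was near the 34.6% of all genes. The sodium-driven chloride-bicarbonate exchanger gene SLC4A8 (ENSAMXG00000002165) had 20.1, 31.1 and 41.6 CPM in Pachón controls and 1.57, 3.74 and 6.26 CPM in surface controls. The lowest Pachón library was above the highest surface library, and the change was 2.88 ± 0.41, or 7.38-fold (edgeR adjusted p = 3.06e-05). Within the old batch it was 3.46 and within the new batch 2.31 (adjusted p = 4.07e-05 and 0.0196). Starved fish gave 2.61 ± 0.43 (edgeR adjusted p = 0.000153), with 26.7 to 91.0 CPM in Pachón and 1.87 to 10.9 CPM in surface ovaries.

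SLC4A7, a sodium-bicarbonate cotransporter gene, stands on 2 tested rows that went opposite ways. The row ENSAMXG00000005426 had 1.61, 6.85 and 10.2 CPM in Pachón controls and 0.511, 2.15 and 3.49 CPM in surface controls, a change of 1.61 ± 0.48 (edgeR adjusted p = 0.0147). Its ranges overlapped, and the call was lost without replicate 1 of the surface new controls (adjusted p = 0.0677). The row ENSAMXG00000007976 had 78.4, 85.6 and 113 CPM in Pachón controls and 108, 113 and 136 CPM in surface controls, a change of -0.37 ± 0.09 (edgeR adjusted p = 0.00261). Whether the 2 rows are separate genes or pieces of 1 annotation could not be told apart here, nor whether reads were split between them. SLC4A10, another sodium-coupled bicarbonate transporter gene, and SLC4A11 (ENSAMXG00000011585), a proton carrier gene, were called lower at -0.55 and -0.73. In that order they lost the call in 8 and 13 of the 22 fits without 1 library. A further tested row of slc4a11 (ENSAMXG00000012299) was not called.

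The chloride cotransporters of the SLC12 family gave 2 members higher and 1 lower of 6 tested (50%, against 34.6% of all genes). SLC12A7 (ENSAMXG00000011972), a potassium-chloride cotransporter (KCC4), had 16.2, 18.2 and 31.6 CPM in Pachón controls and 3.84, 6.25 and 16.8 CPM in surface controls. Surface controls of the new batch, at 11.2 and 16.8 CPM, stood above those of the old batch at 3.84 to 6.40 CPM. The change was 1.23 ± 0.21 (edgeR adjusted p = 0.000194), with 1.92 in the old batch (adjusted p = 1.64e-05) and 0.54 in the new batch (adjusted p = 0.299). The sodium-potassium-chloride cotransporter gene slc12a2 had a change of -0.06 (adjusted p = 0.705). The sodium-chloride cotransporter-like gene slc12a10.1 (ENSAMXG00000009214) held 39 counts in Pachón controls and 16 in surface controls, a ratio of 2.64 (95% counting interval 1.44 to 5.05). Its call (edgeR adjusted p = 0.025) had 3.50 in the old batch (adjusted p = 0.00339) and 0.05 in the new batch (adjusted p = 0.976), and was lost without replicate 1 or 2 of the surface new controls (adjusted p = 0.0515 and 0.0775) or replicate 1 of the Pachón new controls (0.0903).

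Sodium-proton exchangers gave 1 member higher and 3 lower of 7 tested (57.1%, against 34.6% of all genes). The endosomal and Golgi exchanger gene slc9a8 (ENSAMXG00000000696) was the higher one, at 0.40 ± 0.12 (edgeR adjusted p = 0.0149). Leaving out replicate 1 of the surface new controls (adjusted p = 0.0613) or replicate 2 of the Pachón new controls (0.0628) ended that call. The gene slc9a3.1 (ENSAMXG00000009577) is named after the apical exchanger NHE3. It had 0.786, 1.46 and 1.96 CPM in Pachón controls. Surface controls had 24.8, 27.4, 49.4 and 1.70 CPM in the old batch and 1.52 and 0.810 CPM in the new batch, so 3 of the 6 stood above all Pachón libraries and 3 within their range. The change of -1.94 ± 0.65 (edgeR adjusted p = 0.0273) was -4.23 in the old batch (adjusted p = 0.00012) and 0.35 in the new batch (adjusted p = 0.864). The pooled call was lost without replicate 1 of the surface new controls (adjusted p = 0.17), or replicate 1 or 2 of the Pachón new controls (0.0922 and 0.0621). For slc9a2 (ENSAMXG00000005215), another plasma membrane exchanger gene, Pachón controls held 1 count and surface controls 57. That is a ratio of 0.0190 (95% counting interval 0.000472 to 0.110). In the old batch, 1 surface control had 5.11 CPM and the others at most 0.191 CPM. Those of the new batch averaged 2.11 CPM (SD 2.51). Only surface libraries carried slc9a2 past the filter on low counts. DESeq2, voom, the fit without that filter and each batch alone did not call it. Its call (edgeR adjusted p = 0.0401) was lost in 8 of the 22 fits without 1 library, and that of the endomembrane exchanger gene slc9a7 (-0.29, adjusted p = 0.0479) in 17.

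Zinc carriers gave 4 higher and 4 lower of 16 tested members. These were 37.5% of tested SLC30 and 62.5% of tested SLC39 members, against 34.6% of all genes. The Golgi zinc importer to the cytosol slc39a13 (ZIP13, ENSAMXG00000034037) had 226, 255 and 273 CPM in Pachón controls and 323, 390 and 438 CPM in surface controls. Every Pachón library lay below every surface library, and the change was -0.58 ± 0.06 (edgeR adjusted p = 1.6e-06). The plasma membrane importer slc39a10 (ENSAMXG00000012176) had 271, 301 and 303 CPM in Pachón controls against 315, 381 and 410 CPM in surface controls, again without overlap (-0.35 ± 0.07, edgeR adjusted p = 0.000898). The mitochondrial zinc transporter slc30a9 (ENSAMXG00000013803) was lower as well, at -0.41 ± 0.12 (edgeR adjusted p = 0.0105), with 46.6 to 61.8 CPM in Pachón and 63.5 to 82.5 CPM in surface controls. That call was lost without replicate 1 of the surface new controls (adjusted p = 0.0586) or of the Pachón new controls (0.091).

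The zinc carrier slc30a6 (ENSAMXG00000034992), which loads the early secretory pathway with zinc, was higher in Pachón. It had a median of 18.3 CPM (highest 24.5) in Pachón controls and of 10.9 CPM (highest 13.0) in surface controls, and every Pachón library was above every surface one (0.85 ± 0.25, edgeR adjusted p = 0.0122). The call was lost without replicate 1 of the surface new controls (adjusted p = 0.0599) or replicate 2 of the Pachón new controls (0.0607). SLC30A8 (ENSAMXG00000021151), which loads insulin granules with zinc in pancreatic beta cells, rested on 8 counts in Pachón controls and 95 in surface controls, a ratio of 0.0911 (95% counting interval 0.0382 to 0.187). Both surface controls of the new batch carried most of those counts, at 8.12 and 6.48 CPM, while the 4 of the old batch had 0.170 to 0.609 CPM. Only the new-batch surface controls, where it is high, carried SLC30A8 past the filter on low counts. Its call (edgeR adjusted p = 0.00189) was made of 0.29 in the old batch (adjusted p = 0.819) and -8.46 in the new batch (adjusted p = 0.000705). A further tested row of slc39a1 (ENSAMXG00000036608) was not called. It averaged 27.9 and 26.3 CPM in old and new Pachón controls, and 30.9 and 29.8 CPM in surface ones. Higher in Pachón were SLC39A1 (ENSAMXG00000011024, 0.34), SLC39A3 (0.55) and slc39a14 (0.84), zinc importers at the cell surface. Of these, slc39a14 also carries iron. Their edgeR adjusted p were 0.0197, 0.0204 and 0.0351. All 3 calls were lost in some fits without 1 library, those of SLC39A1 and SLC39A3 in 2 each and that of slc39a14 in 6.

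Both tested SLC41 members were called, in opposite directions. The magnesium exporter gene slc41a1 (ENSAMXG00000003381) had 22.4, 28.0 and 33.8 CPM in Pachón controls and 9.47, 13.6 and 18.8 CPM in surface controls. The libraries did not overlap, and the change was 0.95 ± 0.16 (edgeR adjusted p = 0.000216). The magnesium transporter gene SLC41A2 (ENSAMXG00000038359) had 32.4, 36.5 and 41.1 CPM in Pachón controls and 44.3, 46.6 and 53.3 CPM in surface controls, also without overlap (-0.41 ± 0.10, edgeR adjusted p = 0.00391). In the new batch alone its value was -0.46 (adjusted p = 0.0646).

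Calcium exchangers had 1 called member of 6 tested. The sodium-calcium exchanger slc8a1a (ENSAMXG00000011704) had 52 counts in Pachón controls and 14 in surface controls, a ratio of 4.02 (95% counting interval 2.19 to 7.85). Surface controls of the old batch had 0 CPM in 3 of 4 libraries. Those of the new batch had 1.18 and 0.810 CPM, the first within and the second below the Pachón range of 0.895 to 2.90 CPM. Only Pachón controls carried slc8a1a past the filter on low counts, and it was not tested without replicate 3 of the old ones. Its call (edgeR adjusted p = 0.0146) was lost without replicate 2 of the surface new controls (adjusted p = 0.0595) or of the Pachón new controls (0.104).

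**Figure D2:**
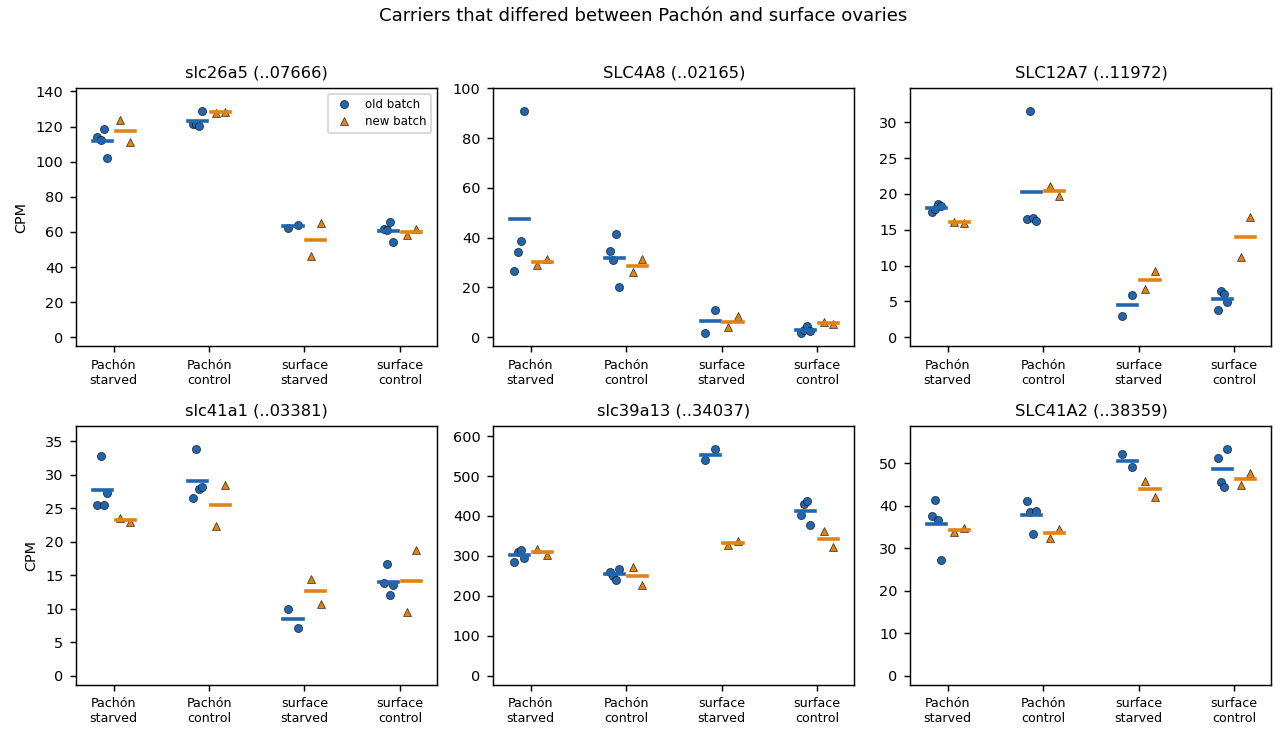
CPM of 6 carriers in each library, by morph and treatment, with circles for the old and triangles for the new batch and a bar for each batch mean. Pachón libraries of slc26a5, SLC4A8 and slc41a1 lie above all surface libraries, and those of slc39a13 and SLC41A2 lie below them, while SLC12A7 overlaps in control fish.

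In starved fish, 20 of the 55 tested members (36.4%) differed between the morphs, 15 higher and 5 lower in Pachón, where 36% of all genes were called, 18.3% higher and 17.7% lower. The median change of the members was 0.12, against 0.00 over all genes. Of these 20, 12 (60%) changed 2-fold or more, 15 (75%) had libraries that did not overlap, and all 20 had the same sign in both batches, where 47.9%, 57.2% and 97.6% of all called genes did so. Of the 20, 15 kept their call in all 22 fits without 1 library. Among those that did not were slc4a1b, SLC26A2, SLC39A3 and the row ENSAMXG00000007976 of SLC4A7. Voom with sample weights called 13 (22.6% of all genes), the old batch alone 20 (28.4% of all genes) and the new batch alone 7 (16.7% of all genes). The 2 morph comparisons use different libraries, and 15 members were called in both, each in the same direction, 11 higher and 4 lower in Pachón. These were 55.6% of the members called in controls and 75% of those called in starved fish. Of all genes, 34.6% were called in controls and 36% in starved fish. The share of all genes called in both was not taken, so the members' overlap has no background here.

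The 4 tested SLC26 members were again higher in Pachón, with a median of 1.50, the same with slc26a4 at its bound. The tested pendrin row (slc26a4, ENSAMXG00000043653) had 0 counts in each of the 4 starved surface libraries. It had 180 counts in the 6 starved Pachón libraries, at 1.93 to 8.21 CPM. It was at least 8.86-fold higher in Pachón with a floor of 3 counts per library (edgeR adjusted p = 0.000121). The row passed the filter on low counts through Pachón libraries, where it is high. The untested slc26a4 row (ENSAMXG00000004033) had 23 counts over all libraries. It averaged 0.333 and 0 CPM in starved Pachón libraries of the old and new batch, and 0 and 0.322 CPM in starved surface ones. The sulfate transporter slc26a11 (ENSAMXG00000004718) had 7.89 to 10.8 CPM in starved Pachón libraries. Starved surface libraries had 5.47 and 4.74 CPM in the old batch and 0.805 and 1.07 CPM in the new batch, all below the Pachón range. The change was 2.05 ± 0.34 (edgeR adjusted p = 0.000127), with 0.91 in the old batch (adjusted p = 0.0928) and 3.19 in the new batch (adjusted p = 0.000504).

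Bicarbonate carriers gave 4 higher and 2 lower of 14 tested in starved fish (42.9%, against 36% of all genes). SLC4A4 (ENSAMXG00000013324), the electrogenic sodium-bicarbonate cotransporter gene, had 6.76 to 16.1 CPM in starved Pachón libraries and 0.720, 3.00, 1.61 and 2.58 CPM in starved surface libraries. These did not overlap, and the change was 2.53 ± 0.54 (edgeR adjusted p = 0.00132), where control fish had 0.55 ± 0.42 (adjusted p = 0.341). SLC4A5 (ENSAMXG00000001672), a related cotransporter gene, had 106 counts in starved Pachón and 14 in starved surface libraries, a ratio of 4.57 (95% counting interval 2.61 to 8.65, edgeR adjusted p = 0.00514). Neither SLC4A4 nor SLC4A5 was called in the new batch alone. The anion exchanger gene slc4a1b (ENSAMXG00000012104), a paralog of the red cell band 3 protein gene, was lower in Pachón, with 1.96 to 4.04 CPM. Starved surface libraries had 11.2 and 11.0 CPM in the old batch and 2.90 and 10.1 CPM in the new batch, and 3 of 4 stood above all Pachón libraries (-1.34 ± 0.33, edgeR adjusted p = 0.00416). Without replicate 2 of the surface new batch the call was lost (adjusted p = 0.084).

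Among the other families, slc41a1 (1.29 ± 0.18, edgeR adjusted p = 2.95e-05), SLC12A7 (1.52 ± 0.24, 8.43e-05), slc30a6 (1.34 ± 0.29, 0.00131), slc9a8 (0.62 ± 0.13, 0.00123) and the potassium-dependent sodium-calcium exchanger gene SLC24A3 (1.24 ± 0.28, 0.00195) were higher in starved Pachón than in starved surface ovaries. None of these 5 overlapped between the morphs, and each kept its call in all 22 fits without 1 library. In the new batch alone, slc41a1 and slc9a8 were called, and SLC12A7, slc30a6 and SLC24A3 were not. Lower in Pachón were SLC41A2 (-0.43 ± 0.11, edgeR adjusted p = 0.00425), slc39a13 (-0.49 ± 0.07, 2.19e-05) and slc9a3.1 (-2.57 ± 0.60, 0.00268). The last was -4.45 in the old batch (adjusted p = 0.000216) and -0.70 in the new batch (adjusted p = 0.666), and voom gave it an adjusted p of 0.212. For slc39a13 the starved surface libraries had 540 and 567 CPM in the old batch and 328 and 338 CPM in the new batch, against 285 to 317 CPM in starved Pachón libraries. Its change was -0.88 in the old batch (adjusted p = 1.08e-06) and -0.10 in the new batch (adjusted p = 0.545), a difference of -0.77 ± 0.14 (old minus new, edgeR adjusted p = 0.00733) in a comparison that called 0.865% of all genes and 2 members.

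In surface fish, 6 of the 55 tested members (10.9%) fell with starvation and 0 rose, where 7.79% of all genes were called, 5.37% lower and 2.42% higher. Of the 55, 45 had a negative change, a count not taken over all genes. The median was -0.22, against -0.01 over all genes. An unadjusted edgeR p under 0.05 was reached by 18 members and by 3975 of the 15607 genes. Among the 6 were a sodium-bicarbonate cotransporter, a pair of SLC26 anion exchangers, a zinc carrier and a calcium exchanger. Starved surface ovaries had 4 libraries and controls 6. Each of the 6 had the same sign in both batches, as 97.0% of all called genes had. Of the 6, only slc30a6 (16.7%) had libraries that did not overlap, against 36.2% of all called genes. The old batch alone called 0 members (0.147% of all genes) and the new batch alone 4 (4.18% of all genes).

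SLC4A4 (ENSAMXG00000013324) had 0.720 and 3.00 CPM in starved fish of the old batch and 1.61 and 2.58 CPM in those of the new batch. Surface controls had 2.44, 3.05, 19.1 and 5.11 CPM in the old and 11.8 and 12.6 CPM in the new batch. The lowest old-batch controls overlapped the starved libraries, and the new-batch groups were apart. The change was -2.27 ± 0.54 (edgeR adjusted p = 0.0167). Its adjusted p was 0.0806 with starved old library 1 left out and 0.065 with starved new library 2 left out.

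For slc26a11 (ENSAMXG00000004718), starved libraries had 5.47, 4.74, 0.805 and 1.07 CPM, and controls had 3.38, 6.30 and 10.5 CPM (lowest, median, highest). The low pair were those of the new batch, where the change was -2.21 (adjusted p = 0.0314), against -0.63 in the old batch (adjusted p = 0.508). The pooled change was -1.42 ± 0.34 (edgeR adjusted p = 0.0173). Its adjusted p was 0.0617 with starved old library 2, 0.0838 with new control 2 and 0.0582 with starved new library 2 left out. The tested pendrin row, slc26a4 (ENSAMXG00000043653), had 0 counts in the 4 starved surface ovaries and 94 in the 6 control ones. With a floor of 3 counts per library it was at least 5.04-fold lower in starved fish (edgeR adjusted p = 0.0203). Replicate 2 of the new controls, at 13.0 CPM, gave most of those counts, and without it the adjusted p was 0.0551, with 14 counts left in 5 controls, a mean below the floor, so that no bound remains. It was 0.0699 with old control 3, 0.06 with starved old library 1, 0.0551 with starved old library 2 and 0.0616 with starved new library 2 left out.

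The zinc carrier slc30a6 (ENSAMXG00000034992) had 5.90, 5.05, 9.01 and 1.72 CPM in starved libraries and 10.1, 10.9 and 13.0 CPM (lowest, median, highest) in controls. All 4 starved libraries were below all 6 controls, with a change of -1.05 ± 0.29 (edgeR adjusted p = 0.0319). SLC24A3 (ENSAMXG00000039529) had 6.77 and 7.10 CPM in starved libraries of the old batch and 10.1 and 3.65 CPM in those of the new batch, against 5.58 to 18.9 CPM in controls. The groups overlapped, with a change of -0.94 ± 0.28 (edgeR adjusted p = 0.0449).

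These calls also rested on single libraries. Leaving out starved old library 1 or 2, new control 1 or 2, or starved new library 2 gave slc30a6 an adjusted p of 0.0814, 0.106, 0.0566, 0.103 and 0.0778. SLC24A3 lost its call in 19 of the 22 fits (adjusted p of up to 0.193). The count of 6 became 0 with starved new library 2 left out, 14 of 57 tested members (24.6%) with starved new library 1, and 1 with starved old library 1, starved old library 2 or new control 2 left out. Of all genes, 2.57% were called with starved new library 2 left out, 26.6% with starved new library 1, and 3.21%, 3.51% and 2.82% with starved old library 1, starved old library 2 and new control 2. The members' count was also 0 in the surface libraries fitted alone and with voom, where 0% of all genes were called in each.

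Several lists of ovarian somatic cell markers also held genes called lower in starved surface fish. All 7 tested genes of stroma and matrix and all 4 of smooth muscle were called lower in starved surface fish. The summed level of the 8 stroma genes was 8.64 to 24.6 CPM in starved surface libraries, and had a median of 48.7 CPM and a highest value of 206 CPM in control ones, of which the lowest lay within the starved range, and 1 of the 8 was at 0 in all starved libraries. Smooth muscle genes summed to 4.02 to 8.37 CPM in starved and 11.0 to 62.8 CPM in control libraries, and the 3 theca and steroidogenic genes to 0.288 to 1.50 and 2.59 to 22.5 CPM, with 1 of the 3 at 0 in all starved libraries. Granulosa genes had 3 of 6 called lower and summed to 5.79 to 15.5 CPM in starved and 7.61 to 31.6 CPM in control libraries, which overlapped, and leukocyte genes had 2 of 6 called lower, at 9.87 to 65.0 and 15.3 to 85.3 CPM. In starved fish the stroma genes summed to 37.2 to 175 CPM in Pachón ovaries, and 5 of 7 were called higher there than in surface ovaries. In bulk samples fewer cells of a type and less RNA per cell cannot be told apart, and the part of these cell types in the carrier changes was not tested.

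**Figure D3:**
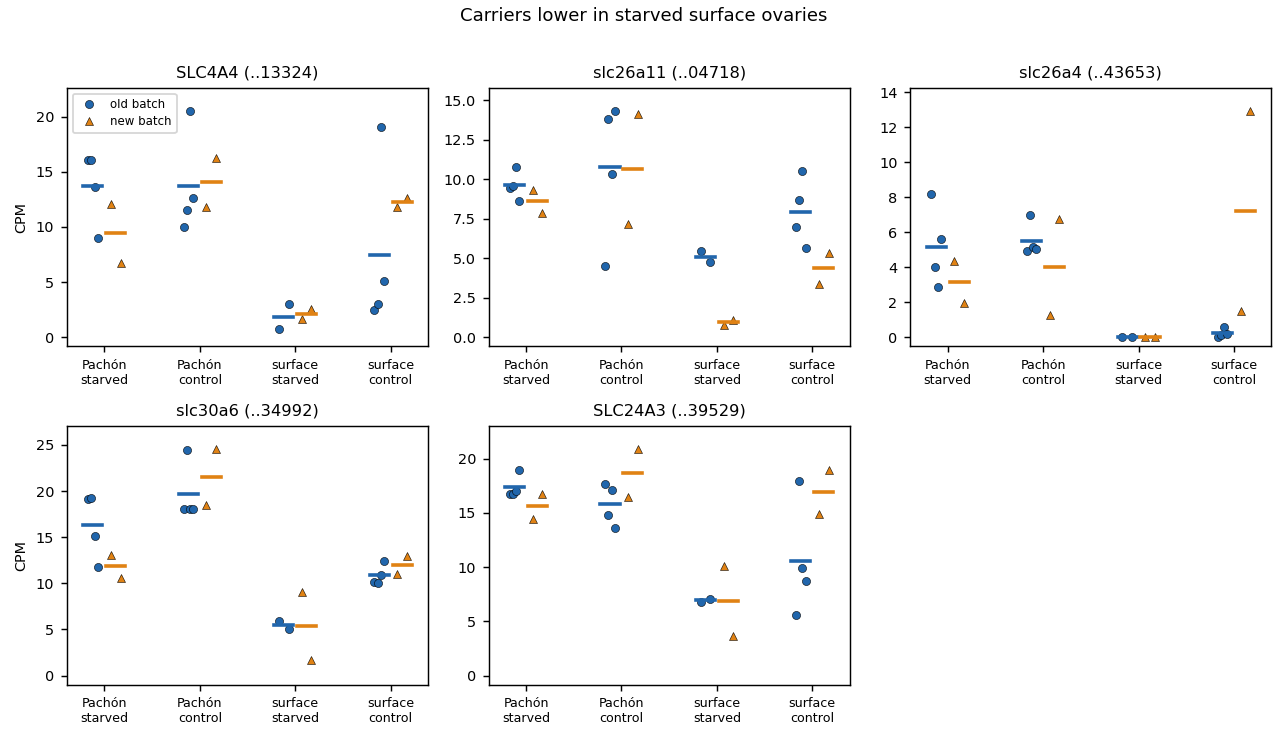
CPM of 5 carriers called lower in starved surface fish, in each library by morph and treatment, with circles for the old and triangles for the new batch and a bar for each batch mean. Starved surface libraries lie at 0 for the tested row of slc26a4 and at 0.720 to 3.00 CPM for SLC4A4. For slc30a6 all 4 lie below every surface control.

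In Pachón fish 0 of the 55 members were called for starvation (6 starved and 6 control libraries), where edgeR called 0% of all genes, and 0.00641% in the old batch alone. At an unadjusted p under 0.05 there were 4 members (1142 of all genes), and the members' median change was -0.06. Those with the smallest p were slc39a13, the sodium-calcium exchanger slc8a1a and the plasma membrane zinc exporter slc30a1a. For slc39a13 (ENSAMXG00000034037) starved Pachón libraries had 285, 306 and 317 CPM (lowest, median, highest) and controls 226, 255 and 273 CPM. These did not overlap, with a change of 0.28 ± 0.06 (edgeR adjusted p = 0.424). DESeq2 called slc39a13 as the only member (adjusted p = 0.0261), where 0.0577% of all genes were called. For slc30a1a (ENSAMXG00000024537) starved libraries had 18.2, 22.5 and 25.3 CPM and controls 26.4, 27.4 and 41.2 CPM, also apart (-0.49 ± 0.17, edgeR adjusted p = 0.628). How many of all genes stood apart in this comparison was not counted. For slc8a1a (ENSAMXG00000011704) the groups overlapped, at 0.161 to 1.35 CPM in starved and 0.895 to 2.90 CPM in control libraries (-1.65 ± 0.64, edgeR adjusted p = 0.635).

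The 6 members that fell in surface fish had Pachón starvation values between -0.56 (slc30a6) and -0.06 (SLC24A3), and edgeR called none of them. The starvation response itself differed between the morphs for 0 members, where 0.0256% of all genes were called, and 6 members had an unadjusted p under 0.05 (1446 of all genes). Within the old and the new batch alone it was also 0 members (0.0384% and 0.0705% of all genes). For slc26a4 the Pachón response was -0.22 ± 0.52, and the adjusted p of the difference was 0.206 by edgeR and 0.0297 by DESeq2. It was the 1 member that DESeq2 called (0.686% of all genes). For SLC4A4 the Pachón response was -0.29 ± 0.42 and the surface response -2.27 ± 0.54, a difference of 1.99 ± 0.68 (edgeR adjusted p = 0.341). For slc26a11 the Pachón response was -0.23 ± 0.26 and the surface response -1.42 ± 0.34, a difference of 1.19 ± 0.43 (edgeR adjusted p = 0.365). Without replicate 1 of the starved surface new batch, 3 of 57 tested members (5.26%) were called for this difference, where 4.88% of all genes were called.

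Old and new batches were compared in control fish over both morphs, and 0 members were called by edgeR, where 1.24% of all genes were called, 0.506% higher and 0.737% lower in the old batch. At an unadjusted p under 0.05 there were 8 members (2187 of all genes), and DESeq2 called 3 (3.16% of all genes), namely slc26a4, SLC12A7 and slc9a3.1. Within surface controls alone 5 members were called (7.36% of all genes), and within Pachón controls 0 (0.032% of all genes). For slc9a3.1 (ENSAMXG00000009577) the surface change was 4.45 (adjusted p = 0.00638), with 24.8, 27.4, 49.4 and 1.70 CPM in the old and 1.52 and 0.810 CPM in the new batch. For SLC12A7 it was -1.39 (adjusted p = 0.00792), for SLC30A8 -4.54 (0.00124), for slc26a4 -4.94 (0.00303) and for slc12a10.1 (ENSAMXG00000009214) -3.47 (0.0262). The Pachón values were -0.13 for slc9a3.1, -0.01 for SLC12A7, 0.47 for slc26a4 and -0.03 for slc12a10.1. For SLC30A8, Pachón controls had 1, 1, 1 and 5 counts in the old batch and 0 in both libraries of the new batch, the opposite order to surface controls (4.21, edgeR adjusted p = 1). Some somatic cell markers also stood apart between the old and new surface controls. Their summed stroma genes were at 53.8 CPM or less in the 4 old and at 158 and 206 CPM in the 2 new libraries, leukocyte genes at 15.3 to 38.5 and at 85.3 and 70.3 CPM, and smooth muscle genes at 11.0 to 30.9 and at 42.5 and 62.8 CPM. Theca and steroidogenic genes overlapped, at 2.59 to 22.5 CPM in the old and 9.31 and 18.9 CPM in the new libraries. Between batches over both morphs, edgeR called 0 genes of the stroma, leukocyte, smooth muscle and theca lists. The part of these cells in the carrier changes was not tested. Since the ages are not tied to the batches, age and batch cannot be told apart.

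**Figure D4:**
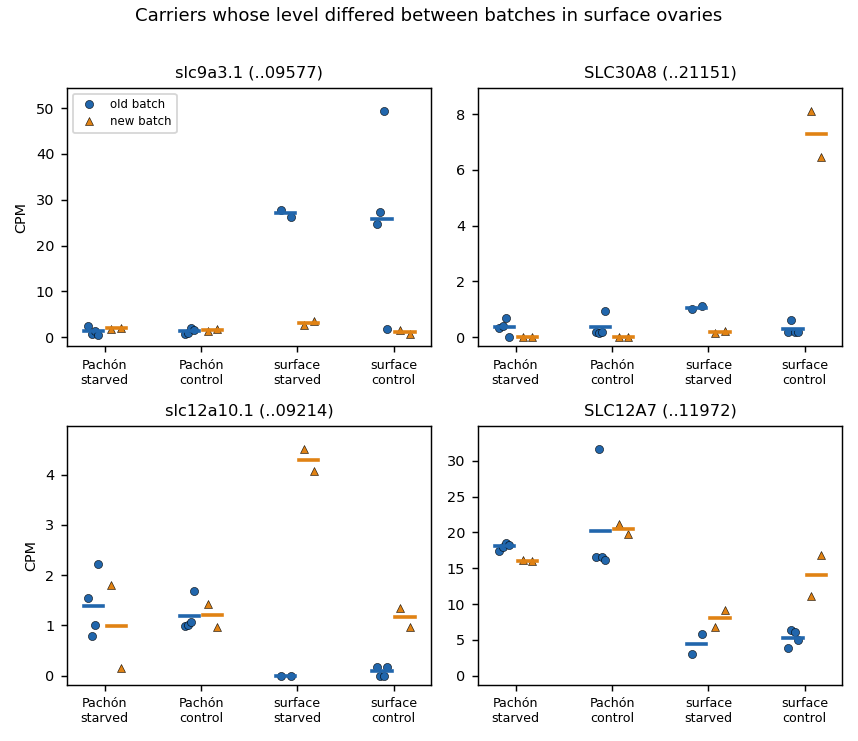
CPM of 4 carriers called between old and new surface controls, in each library by morph and treatment, with circles for the old and triangles for the new batch and a bar for each batch mean. Old surface libraries are high for slc9a3.1 apart from 1 control at 1.70 CPM, new surface controls are high for SLC30A8 at 8.12 and 6.48 CPM, and slc12a10.1 reached 4.51 and 4.08 CPM in starved surface fish of the new batch.

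Genes that work with these carriers were counted from lists of pumps, channels and enzymes. The sodium-potassium pump, which maintains the sodium gradient that many of the carriers use, had 0 higher and 4 lower of 9 tested genes in Pachón controls, and 0 and 3 in starved fish. Such list counts stand against 34.6% of all genes called in controls and 36% in starved fish. The alpha subunit gene atp1a3a averaged 6.30 CPM in Pachón and 44.5 CPM in surface controls (-2.90 ± 0.33, edgeR adjusted p = 2.37e-06). The alpha subunit genes atp1a1a.1 (-0.27), atp1a3b (-1.82) and atp1a1b (-1.48) were the others called lower in control fish (edgeR adjusted p = 0.00836, 0.0126 and 0.0353). In starved surface fish 1 of the 9 genes fell, the beta subunit gene atp1b1a, with 2.02 CPM in starved and 7.58 CPM in control ovaries (-1.98 ± 0.37, edgeR adjusted p = 0.00463).

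Carbonic anhydrases, which make bicarbonate from carbon dioxide, had 0 higher and 1 lower of 6 tested genes in Pachón controls, and 2 higher and 1 lower in starved fish. The lower one was cahz, at 0.494 CPM in Pachón and 3.39 CPM in surface controls (-3.07 ± 0.62, edgeR adjusted p = 0.000837). The mitochondrial enzyme gene ca5a averaged 48.1 CPM in starved Pachón and 22.1 CPM in starved surface ovaries (1.09 ± 0.23, edgeR adjusted p = 0.00115), and it fell in starved against control surface fish (-0.81 ± 0.23, edgeR adjusted p = 0.0374). Chloride channels had 1 higher and 3 lower of 11 in Pachón controls. The bestrophin gene BEST1 averaged 13.7 CPM in Pachón and 2.36 CPM in surface controls (2.57 ± 0.32, edgeR adjusted p = 5.05e-06), and the endosomal chloride-proton exchanger gene CLCN6 46.8 and 89.0 CPM (-1.01 ± 0.10, edgeR adjusted p = 3.71e-07).

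Magnesium handling had 2 higher and 4 lower of 12 tested genes in Pachón controls, and 3 and 4 in starved fish. The gene cnnm2a, of a family of magnesium transport mediators, averaged 35.7 CPM in Pachón and 5.47 CPM in surface controls (2.50 ± 0.31, edgeR adjusted p = 6.22e-06). The magnesium transporter gene nipa2 averaged 34.6 and 61.7 CPM (-0.84 ± 0.11, edgeR adjusted p = 1.82e-05). Calcium pumps and channels had 0 higher and 2 lower of 13, with the plasma membrane pump gene atp2b4 at 7.35 CPM in Pachón and 27.0 CPM in surface controls (-1.39 ± 0.32, edgeR adjusted p = 0.00257). Zinc handling had 1 higher and 2 lower of 7, the higher one being mtf1, the zinc-sensing transcription factor gene (0.55 ± 0.16, edgeR adjusted p = 0.00966). In starved surface fish 1 of those 7 genes rose, a row of the metallothionein gene mt2 (ENSAMXG00000035436), whose protein binds zinc, with 336 CPM in starved and 177 CPM in control ovaries (0.90 ± 0.27, edgeR adjusted p = 0.0465). The kinases and ubiquitin ligases that regulate SLC12 cotransporters had 2 higher and 1 lower of 9 in Pachón controls, each called gene changing by at most 0.31 in size.

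Across the 22 libraries, the log2 CPM of slc26a5 was most like that of ENSAMXG00000000747, WDR59 and ENSAMXG00000038847 (Pearson's r of 0.977, 0.973 and 0.972). That of slc39a13 was most like prpsap1, fermt2 and TBKBP1 (0.906, 0.905 and 0.904), and that of slc41a1 like ENSAMXG00000002153, ENSAMXG00000025724 and vwc2l (0.938, 0.932 and 0.927). These values are descriptions over the same libraries, whose largest difference was that between the morphs.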

How the data were processed

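The authors deposited whole-number counts per gene for 22 ovary libraries, and all tests used these. The deposited scaled CPM table was not used. STAR 2.7.10b and RSEM are listed, without roles, in the submitters' processing notes. Per the labels' protocols, RNA was Trizol-extracted and libraries were strand-aware and depleted of ribosomal RNA. No source used here gives the genome build, the annotation or the strand setting, and overlapping and antisense genes could not be told apart. The 4 rows that name no gene (32.4% to 44.6% of reads) were left out. Symbols came from the deposited table, and 8 member symbols stand on 2 rows.

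Tests were run with edgeR 4.0.16 in R 4.3.3 (filterByExpr with minimum count 10 and minimum total 15, TMM, 8 group means over all 22 libraries, robust quasi-likelihood, 2-sided tests, threshold 0.05 over all genes). An SE is the change divided by the root of its F statistic. Rows with few counts can pass the filter only through the group where they are high, as slc8a1a, slc9a2, SLC30A8 and slc26a4 (ENSAMXG00000043653) did. CPM are counts per 1e+06 counts in tested genes after TMM scaling, a side with 0 counts takes a floor of 3 counts per library, and intervals (95%, exact) cover counting error only. Alternatives were RLE scaling, no filter, within-batch and within-morph contrasts, a morph fitted alone, the replicate number as a block, DESeq2 1.42.0, voom with sample weights (limma 3.58.1) and each library left out. Contrasts between batches were added after the values had been seen. The values of 2 tested members are not reported here, though the counts include them. Members and lists were chosen with earlier results of these data known. Named members are those with the smallest p, up to 8 per direction and comparison (3 where none was called), and others within their family. Named partner genes are up to 4 called ones per list and comparison, and the genes most like a member are the 3 with the highest r.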

Additional observations from a re-analysis of the deposited data

Results flagged for a closer look

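In the 3 groups of 4 libraries, 99 sets of values of 33 named members were examined for a library far from the other 3, and 15 stood apart. Chance gives about 1 in 20 for normally spread values, and sets with 0 or few counts can exceed that rate. The 15 are therefore no measure of how many libraries are aberrant. Of the 15, 9 were in Pachón controls of the old batch. Replicate 2 there stood high for SLC12A7 (31.6 CPM), slc30a6 (24.5 CPM) and slc26a4 (6.99 CPM), and replicate 4 for slc26a5 (129 CPM), SLC30A8 (0.931 CPM) and slc12a10.1 (1.68 CPM). Replicate 3 stood high for slc8a1a (2.14 CPM) and slc9a2 (0.178 CPM), and replicate 1 for SLC39A1 (42.2 CPM). In surface controls of the old batch, replicate 2 stood high for SLC30A8 (0.609 CPM) and slc30a1a (43.4 CPM), replicate 3 for slc8a1a (0.382 CPM) and SLC4A4 (19.1 CPM), and replicate 4 for slc9a2 (5.11 CPM). In starved Pachón fish of the old batch, replicate 4 stood high for SLC24A3 (19.0 CPM). Values under 1 CPM are a few counts.

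The same contrast differed between the batches, by its own edgeR test, in 5 cases. The Pachón over surface difference in controls, old minus new, was 8.75 ± 1.74 for SLC30A8 (adjusted p = 0.0218) and 5.42 ± 1.22 for slc26a4 (adjusted p = 0.0412). In starved fish it was 8.18 ± 1.56 for slc12a10.1 (adjusted p = 0.0162) and -0.77 ± 0.14 for slc39a13 (adjusted p = 0.00733). The surface response to starvation differed by 6.93 ± 1.30 for SLC30A8 (adjusted p = 0.0298), where 0.352% of all genes were called. For SLC30A8, starved surface fish of the old batch had 7 counts in each of 2 libraries, against 1 to 4 counts in surface controls of that batch. In the new batch they had 0.161 and 0.215 CPM, against 8.12 and 6.48 CPM in surface controls. The large fitted differences of SLC30A8 and slc12a10.1 rest on groups with few or 0 counts, and depend on the prior count of the fit.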

How the results depend on the processing

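For Pachón over surface fish, 27 members were called in controls and 20 in starved fish (34.6% and 36% of all genes). In controls the old batch alone gave 17 (30.4% of all genes) and the new batch alone 11 (14.9%). In starved fish the new batch alone gave 7 (16.7% of all genes) and voom 13 (22.6%). For starvation in surface fish (6 called), the old batch, the surface libraries alone and voom each gave 0 (0.147%, 0% and 0% of all genes). The replicate block gave 3 there (4.31% of all genes). DESeq2 called 1 member for starvation in Pachón fish, 1 for the difference of the responses and 3 between batches (0.0577%, 0.686% and 3.16% of all genes). The surface contrast between batches alone called 5 (7.36% of all genes). In each of these comparisons edgeR over all libraries called 0 members. Leaving out 1 library gave 15 to 31 members in controls, 17 to 24 in starved fish and 0 to 14 for starvation in surface fish. It gave 0 to 0 for starvation in Pachón fish, 0 to 3 for the difference of the responses and 0 to 1 between batches. Without replicate 1 of the surface new controls, the 15 were 26.3% of 57 tested members, against 25.7% of all genes. Without starved old surface library 2, the 17 were 29.8% of 57, against 28.6% of all genes. For surface starvation and the difference of the responses, the shares stand with those results above. Shares at the other ends of these ranges are not given. RLE scaling gave 27, 20 and 6 for the first 3 comparisons (34.6%, 35.5% and 7.77% of all genes). Without the filter, 23, 20 and 5 of 77 members were called (20.5%, 21.3% and 3.80% of all genes). DESeq2 gave 28, 20 and 7 (36.4%, 37.3% and 11.4% of all genes).

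Of the named values, 5 changed sign. Pachón over surface in controls was 0.29 for SLC30A8 in the old batch, and -0.86 for slc26a4 and 0.35 for slc9a3.1 in the new batch. Old over new within Pachón fish was 0.47 for slc26a4 and -0.13 for slc9a3.1. The cause was not tested. Deviations of same-numbered libraries from their group means had 20 correlations from -0.19 to 0.113. Where both groups hold 2 libraries, the deviations mirror each other and both numbers give the same value. Whether the numbers pair libraries was thus not settled, and the main tests used no pairing. The replicate block gave 23 members in controls and 20 in starved fish (32.4% and 32.3% of all genes). Groups of 2 libraries limit the precision of the within-batch values.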
